A study of Homo sapiens with 4 samples.

Results

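The genes described here are 10 genes of the NF-kB pathway in OVCA420 cells: the subunit genes *NFKB1*, *NFKB2*, *RELA* and *RELB*, the inhibitor gene *NFKBIA*, and the feedback and target genes *TNFAIP3*, *BIRC3*, *TNFAIP2*, *ICAM1* and *SOD2*. They were taken by symbol from the 33694 genes of the deposited matrices, and all 10 were found, each once. OVCA420, a line derived from epithelial ovarian cancer, was treated in the study with TGF-β1, a cytokine that induces EMT, to follow the transition over time. Cells were untreated (Ctrl) or received 10 ng/mL TGF-β1 for 1, 3 or 7 days, and droplet-based 3' scRNA-seq was performed on 1 library per time point, 4 libraries in all. All cultures were collected at the same time. The same Ctrl library serves in all 3 comparisons against untreated cells.

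NF-kB transcription factors are dimers of Rel family proteins. In unstimulated cells most of them are held in the cytoplasm by inhibitors such as IκBα, the product of *NFKBIA*, and signals from TNF, interleukin-1 or Toll-like receptors lead to degradation of the inhibitor and entry of the dimer into the nucleus. Many genes that the dimers induce, including *NFKBIA*, *TNFAIP3*, *NFKB2* and *RELB*, encode parts of the pathway itself, so that their transcripts are widely read as feedback targets. In ovarian carcinoma cells the pathway is known for its chemokine and survival genes.

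RefSeq promoter windows, the 250 bases before an annotated start site, were available for 9 of the 10 genes. The motif GGAANNNCC, a short form of the site known for NF-kB dimers, and its reverse complement GGNNNTTCC were searched in them, and both readings can fall on the same bases. At least 1 match was found for 7 of the 9 genes, and none for *RELA* or *SOD2*. Of all 35116 RefSeq windows of this length 17.1% held a match, and of 27305 genes 20.2% did in any of their windows. The 4 windows below were chosen among genes with a match: *NFKBIA* and *BIRC3* were lower at 1 day than in Ctrl, and *TNFAIP3* and *ICAM1* had the highest ratios at 7 days. *SOD2*, also lower at 1 day, had no match and is not shown. They are written 5' to 3' on the gene's strand, from GRCh38.p14, with matches in capitals, and end before the gene start of GENCODE where that lies further upstream. The regions are chr14:35404750-35404999 (minus strand), chr6:137867009-137867213 (plus), chr11:102317234-102317483 (plus) and chr19:10270870-10271092 (plus).
NFKBIA: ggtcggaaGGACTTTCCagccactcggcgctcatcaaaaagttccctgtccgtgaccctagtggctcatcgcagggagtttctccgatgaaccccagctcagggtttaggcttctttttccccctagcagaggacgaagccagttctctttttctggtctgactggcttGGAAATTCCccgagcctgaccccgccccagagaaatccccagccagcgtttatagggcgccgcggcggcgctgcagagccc
TNFAIP3: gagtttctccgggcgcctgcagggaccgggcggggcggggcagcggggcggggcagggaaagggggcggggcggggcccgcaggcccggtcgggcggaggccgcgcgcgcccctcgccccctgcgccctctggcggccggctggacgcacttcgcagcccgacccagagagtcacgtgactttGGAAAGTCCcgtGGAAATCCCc
BIRC3: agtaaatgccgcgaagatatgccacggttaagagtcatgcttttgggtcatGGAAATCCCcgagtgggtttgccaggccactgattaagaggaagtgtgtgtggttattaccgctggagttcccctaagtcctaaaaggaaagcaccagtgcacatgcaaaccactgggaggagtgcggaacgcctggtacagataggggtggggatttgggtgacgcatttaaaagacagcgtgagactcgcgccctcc
ICAM1: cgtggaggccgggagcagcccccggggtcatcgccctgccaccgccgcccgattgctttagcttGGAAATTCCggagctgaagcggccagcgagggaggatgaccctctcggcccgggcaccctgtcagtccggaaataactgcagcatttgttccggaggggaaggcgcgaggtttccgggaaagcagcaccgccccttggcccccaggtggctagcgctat
In *NFKBIA* the 2 matches began 242 and 81 bases before the RefSeq start, and in *TNFAIP3* they began 67 and 55 bases before it. *BIRC3* had 1 match, at 199 bases, and *ICAM1* had 1 at 186 bases. The match of *ICAM1* and the nearer match of *NFKBIA* met the motif in both orientations. The nearest matches were at 48 bases in *NFKB1*, 20 bases in *NFKB2* (the last of its RefSeq start sites) and 97 bases in *TNFAIP2*. A match describes letters in a window. Binding was not measured.

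The barcode lists held 10710 cells, of which the first 3170 in barcode order were read here and 3144 were retained. Each library kept 569 to 937 cells and 25382817 to 32949874 unique molecular identifiers (UMIs, each standing for 1 captured transcript), with a median of 30270 to 43553 UMIs per cell. Retained cells of different libraries shared 1 to 7 barcodes per pair of libraries. The epithelial markers *EPCAM*, *KRT7*, *KRT8*, *KRT18*, *KRT19*, *PAX8* and *MUC16* were detected in all 4 libraries and *WT1* was at 0. Their summed level was 3774 to 5483 CPM (UMIs scaled to a common library total), almost wholly from *EPCAM* and the keratin genes. *PAX8* had only 10, 8, 4 and 8 UMIs in the 4 libraries in time order, and *MUC16* 89, 14, 4 and 5. Leukocyte markers summed to 3.0 to 8.0 CPM (*CD79A* made up most of this, with 84, 89, 128 and 200 UMIs in the 4 libraries in time order and a 7-day log2 ratio of 1.49, while *PTPRC* had 2 UMIs in Ctrl and 0 in the treated libraries), fibroblast markers to 0.315 to 1.37 CPM and endothelial markers to 0.311 to 5.40 CPM, the last almost wholly *CDH5* in Ctrl. The share of cells called G1 from cell cycle genes was 23.7% in Ctrl, 77.9% at 1 day, 46.2% at 3 days and 36.7% at 7 days. Its part in the levels of the 10 genes was not tested, and their levels by phase are given with the cells.

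To obtain a level, all UMIs of a gene in the retained cells were added up per library and scaled to CPM, with an exact Poisson 95% interval, and libraries were compared by log2 ratios with exact conditional 95% intervals. Both kinds of interval describe counting error and nothing else. Each time point has 1 library, so no difference has a replicate check and no test was made. A gene is called higher or lower where the ratio is at least 2-fold and either library has at least 5 CPM. Transcript levels are compared within a gene and not between genes.

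After 1 day of TGF-β1 the subunit genes were above Ctrl while the inhibitor gene *NFKBIA*, the ligase gene *BIRC3* and the enzyme gene *SOD2* were below it. After 7 days all 10 genes were at least 2-fold higher than in Ctrl, from 2.01-fold for *NFKB1* to 22.6-fold for *ICAM1*. Of the 10260 genes that met the 5 CPM limit, 12.1% were called higher at 7 days and 6.22% lower. The 10 genes were chosen with earlier results of these data known, so these shares stand beside them as description only. *NFKB2*, *TNFAIP3* and *ICAM1* were below 5 CPM in Ctrl and so entered only through their level at 7 days. With the limit placed on Ctrl alone, a setting chosen after seeing the data, the other 7 genes were all higher, as were 7.92% of 9499 genes. The median log2 ratio was 1.56 over the 10 genes and 1.04 over these 7, and 0.10 and 0.05 over all genes under the same limits. *NFKBIA*, *NFKB1*, *RELA* and *TNFAIP2* lay just above the limit, at 2.01-fold to 2.05-fold, and scaling by median of ratios, which lowers each 7-day log2 ratio by 0.06, left 6 of the 10 genes past it. With a mitochondrial limit of 10% or in G1 cells 8 were past it, without *NFKBIA* and *TNFAIP2*, and with means over cells 9, without *TNFAIP2*.

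**Figure D1:**
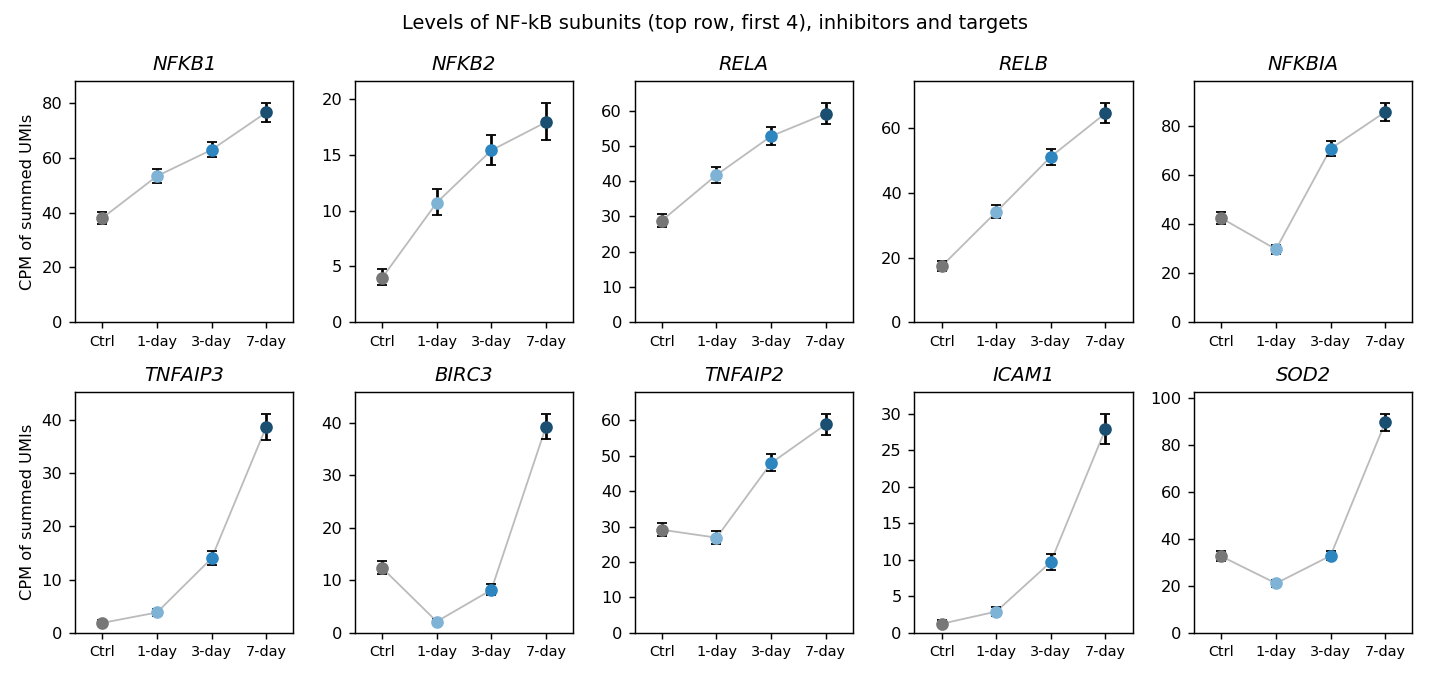
Level of each gene (y axis, CPM of summed UMIs, from 0) in the Ctrl, 1-day, 3-day and 7-day libraries (x axis), with exact Poisson 95% intervals as bars and 1 library per point. Every gene is highest at 7 days, and NFKBIA, BIRC3 and SOD2 dip at 1 day, BIRC3 to 2.15 CPM from 12.4 CPM in Ctrl.

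*NFKB1* (ENSG00000109320, chromosome 4, 102501330 to 102617302) encodes p105, which is processed to the subunit p50. Its level was 38.1 CPM in Ctrl, 53.4 CPM at 1 day, 63.0 CPM at 3 days and 76.6 CPM at 7 days. The level was thus higher in each successive library, with intervals of the ratio that excluded 0 at each step, and at 7 days its log2 ratio to Ctrl was 1.01 (0.90 to 1.12). *RELA* (ENSG00000173039, chromosome 11, 65653599 to 65663090) encodes p65, which carries a transactivation domain. It was at 28.8, 41.8, 52.8 and 59.2 CPM, and reached a log2 ratio of 1.04 (0.92 to 1.16). Both genes of the canonical p50 and p65 dimer therefore had the same order of libraries and were below 2-fold until 7 days. For *RELA* the last step was found in G1 cells, at 52.8 CPM (49.1 to 56.8) at 3 days and 68.7 CPM (63.5 to 74.3) at 7 days. In S or G2M cells its intervals overlapped, at 52.8 CPM (49.5 to 56.2) and 53.7 CPM (50.2 to 57.4).

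*NFKB2* (ENSG00000077150, chromosome 10, 102394110 to 102402524) encodes p100, the precursor of p52 in the non-canonical branch. Its level was 3.97 CPM in Ctrl (119 UMIs), then 10.7, 15.4 and 17.9 CPM at 1, 3 and 7 days. After 1 day *NFKB2* was the one gene of the 10 called higher, with a log2 ratio of 1.43 (1.13 to 1.75) against 2.18 (1.88 to 2.48) at 7 days. *RELB* (ENSG00000104856, chromosome 19, 45001461 to 45038192) encodes the usual partner of p52. The 1-day library, at 34.1 CPM, stood 1.97-fold above the 17.3 CPM of Ctrl and so just below the limit, and *RELB* reached 51.2 CPM at 3 days and 64.7 CPM at 7 days. Its log2 ratio at 7 days was 1.90 (1.76 to 2.05). The counting intervals of *NFKB2* and *RELB* at 7 days did not overlap those of *NFKB1* and *RELA*, so their ratios to the same Ctrl library were higher.

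*NFKBIA* (ENSG00000100906, chromosome 14, 35401079 to 35404749) encodes IκBα, the inhibitor that is resynthesised after each round of activation. It was at 42.5 CPM in Ctrl, 29.7 CPM at 1 day, 70.8 CPM at 3 days and 85.8 CPM at 7 days. The 1-day library was the lowest, and its log2 ratio of -0.51 (-0.64 to -0.39) against Ctrl was short of 2-fold. Between 1 and 3 days *NFKBIA* rose 2.38-fold, and from 3 to 7 days the further ratio was 1.21-fold. In G1 cells alone the last step was absent, at 77.9 CPM (73.4 to 82.7) at 3 days and 77.0 CPM (71.4 to 82.8) at 7 days.

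*TNFAIP3* (ENSG00000118503, chromosome 6, 137867214 to 137883314) encodes A20, a ubiquitin-editing enzyme that limits signalling upstream of IκB degradation. Its 56 UMIs in Ctrl corresponded to 1.87 CPM, and it was at 3.82 CPM at 1 day, 14.0 CPM at 3 days and 38.7 CPM at 7 days. The 4 levels did not overlap in their intervals, and the 7-day log2 ratio was 4.37 (3.98 to 4.79), or 20.7-fold. At 1 day its ratio was 2.05-fold with both libraries under 5 CPM, so no call was made there. The lncRNA gene *WAKMAR2* overlaps *TNFAIP3* on the opposite strand, and other lncRNA genes do so at *RELA*, *TNFAIP2*, *BIRC3* and *ICAM1*.

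*BIRC3* (ENSG00000023445, chromosome 11, 102317484 to 102339403) encodes cIAP2, a ubiquitin ligase of TNF receptor complexes that limits cell death. It was at 12.4 CPM in Ctrl (371 UMIs), 2.15 CPM at 1 day (71 UMIs), 8.18 CPM at 3 days and 39.3 CPM at 7 days. *BIRC3* fell by 2.52 on the log2 scale at 1 day (-2.91 to -2.15), which is 5.74-fold lower, and was the one gene of the 10 called lower in any comparison against Ctrl. It was still below Ctrl at 3 days, by less than 2-fold, at a log2 ratio of -0.60 (-0.83 to -0.36). It rose 3.80-fold between 1 and 3 days and 4.80-fold between 3 and 7 days, when it passed Ctrl with a log2 ratio of 1.67 (1.49 to 1.84).

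*TNFAIP2* (ENSG00000185215, chromosome 14, 103121476 to 103137439) was found as a TNF-inducible gene. Its level was 29.1 CPM in untreated cells, 26.9 CPM at 1 day, 47.9 CPM at 3 days and 58.8 CPM at 7 days. Over all cells Ctrl and 1 day could not be told apart by counting error (log2 ratio -0.12, -0.25 to 0.02). In G1 cells *TNFAIP2* was lower at 1 day, at 25.9 CPM against 34.1 CPM in Ctrl, and these intervals did not overlap. In S or G2M cells it was at 29.97 CPM at 1 day and 27.7 CPM in Ctrl, with overlapping intervals. Over all cells its 7-day log2 ratio was 1.02 (0.89 to 1.14). *ICAM1* (ENSG00000090339, chromosome 19, 10271093 to 10286615) encodes a cell surface adhesion molecule that binds leukocyte integrins. It had 37 UMIs in Ctrl (1.23 CPM) and was at 2.91 CPM at 1 day, 9.71 CPM at 3 days and 27.9 CPM at 7 days. *ICAM1* was highest at 7 days and lowest in Ctrl, with no overlap of the Poisson intervals between any of the 4 libraries. These intervals do not allow for several UMIs in 1 cell. The 37 UMIs of *ICAM1* in Ctrl lay in 23 of 933 cells, and its 96 UMIs at 1 day in 36 of 937. Its log2 ratios to Ctrl were 2.98 (2.48 to 3.51) at 3 days and 4.50 (4.02 to 5.02) at 7 days.

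*SOD2* (ENSG00000112096) encodes the manganese superoxide dismutase of mitochondria. The level was 32.6 CPM in Ctrl, 21.1 CPM at 1 day, 32.8 CPM at 3 days and 89.6 CPM at 7 days. Ctrl and 3 days could not be told apart by counting error (log2 ratio 0.01, -0.12 to 0.14), whereas 7 days stood 2.73-fold above 3 days. Nearly the whole difference of *SOD2* from Ctrl was thus found in the last interval. Its identifier was not matched in GENCODE release 44. By symbol the gene overlaps the lncRNA gene *SOD2-OT1* on the same strand and *WTAP* and *ACAT2* on the other. Whether these overlaps hold in the annotation used for counting, or make its counts less certain, was not tested.

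**Figure D2:**
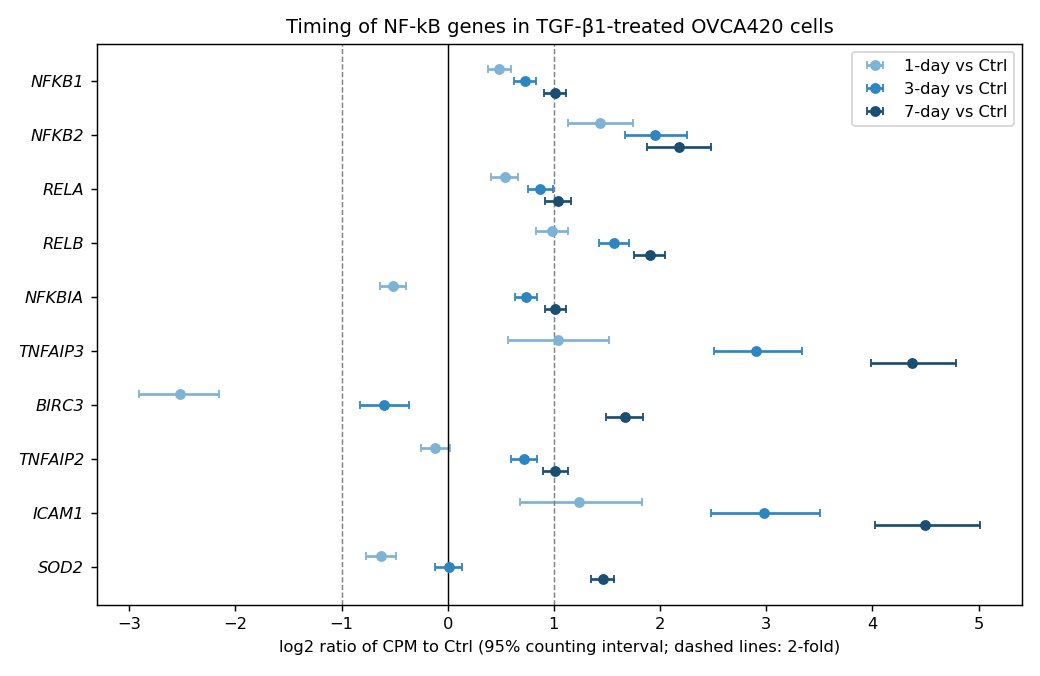
Log2 ratio of CPM to Ctrl (x axis) for each gene (y axis) at 1, 3 and 7 days, with exact conditional 95% counting intervals and dashed lines at 2-fold. The 4 subunit genes lie above 0 at all 3 time points, whereas BIRC3 runs from -2.52 at 1 day to 1.67 at 7 days.

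By time point, 1 of the 10 genes was called higher at 1 day (*NFKB2*) and 1 lower (*BIRC3*), while 9.04% of 10013 genes were called higher and 9.97% lower. *TNFAIP3* and *ICAM1* had under 5 CPM in both libraries and were not among the 8 genes that could be called. At 3 days *NFKB2*, *RELB*, *TNFAIP3* and *ICAM1* were higher and none was lower, against 10.1% and 6.97% of 10088 genes. With the limit of 5 CPM placed on Ctrl, 0 of 7 genes were higher at 1 day (6.51% of all genes) and 1 of 7 was at 3 days (*RELB*, 6.88% of all genes). The count for 3 days is thus made mostly of genes that entered through their treated level.

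Between neighbouring libraries, *NFKBIA*, *TNFAIP3*, *BIRC3* and *ICAM1* rose at least 2-fold from 1 to 3 days, when 4.88% of 9796 genes were called higher and 2.79% lower. *NFKBIA* was the one of these 4 with at least 5 CPM at 1 day, a limit under which 2.95% of genes were higher. From 3 to 7 days *TNFAIP3* (2.76-fold), *BIRC3* (4.80-fold), *ICAM1* (2.87-fold) and *SOD2* (2.73-fold) rose. In this step 1.73% of 9870 genes were called higher and 0.800% lower, and all 10 genes had at least 5 CPM at 3 days already, a limit under which 0.932% of genes were higher. The 6 other genes, among them the 4 subunit genes, had ratios of 1.12-fold to 1.26-fold in that step. The 4 genes past 2-fold in this last step were feedback and target genes, and none was a subunit gene. The inhibitor gene *NFKBIA* (1.21-fold) and the target gene *TNFAIP2* (1.23-fold) were also short of 2-fold.

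Among single cells, the number of the 10 genes detected was compared at a common depth of 18000 UMIs per cell, reached by random thinning, so that 20 to 89 cells per library with fewer UMIs were not used. A Ctrl cell had a UMI for 2.63 of the 10 genes on average (SD 1.33 over 844 cells), a 1-day cell for 2.71 (SD 1.45, 900 cells), a 3-day cell for 3.82 (SD 1.72, 677 cells) and a 7-day cell for 5.22 (SD 1.73, 549 cells). Cells with 5 or more of the genes numbered 76 of 844 in Ctrl and made up 9.56% at 1 day, 31.5% at 3 days and 65.0% at 7 days. No cell was without all 10 genes at 7 days, against 30 of 844 cells in Ctrl. No cell type that should lack these genes was present, and the UMIs that free RNA adds could therefore not be measured.

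The share of thinned cells with a UMI followed the levels. For *TNFAIP3* it was 2.84% in Ctrl (exact binomial 95% interval 1.83 to 4.20), 4.78% at 1 day (3.48 to 6.38), 17.6% at 3 days and 45.7% at 7 days (41.5 to 50.0). The Ctrl and 1-day intervals of this share overlapped. For *BIRC3* the share was 16.1%, 3.33%, 10.3% and 40.3%, and for *RELB* 25.0%, 43.1%, 53.2% and 67.2%. *NFKB2* had a UMI in 6.40%, 16.1%, 25.7% and 27.0% of cells, so that its last 2 shares overlapped in their intervals. *SOD2* was detected in 43.1% of Ctrl cells, 27.4% at 1 day, 41.4% at 3 days and 59.7% at 7 days. *ICAM1* had a UMI in 1.78% of Ctrl cells (1.00 to 2.91) and 2.33% at 1 day (1.45 to 3.54), and these intervals overlapped. Without thinning the shares were higher, for example 5.14% and 67.8% for *TNFAIP3* in Ctrl and at 7 days.

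**Figure D3:**
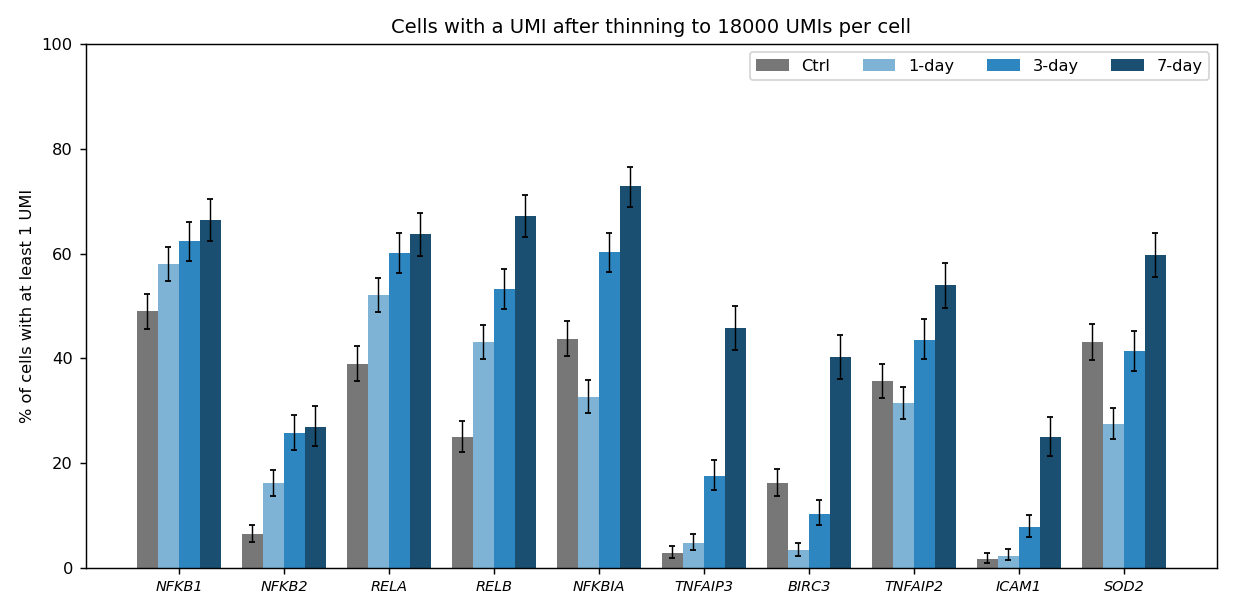
Percent of cells with at least 1 UMI (y axis, 0 to 100) for each gene and library after thinning to 18000 UMIs per cell, with exact binomial 95% intervals as bars. TNFAIP3 goes from 2.84% in Ctrl to 45.7% at 7 days, and BIRC3 and SOD2 have their lowest share at 1 day.

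*ICAM1* and *SOD2* were unevenly spread over the 7-day cells. *ICAM1* had a UMI in 25.0% of them, and the 55 cells with the most held 67.8% of its UMIs. For counts that follow a Poisson distribution the variance equals the mean, and at the mean of *ICAM1* 37.2% of cells would then have a UMI. The variance over the mean at 7 days was 3.86 for *SOD2*, 2.62 for *ICAM1*, 2.21 for *TNFAIP2* and 1.74 for *NFKBIA*. The most a single 7-day cell held was 28 UMIs of *SOD2*, whose mean was 1.42. *RELA* (1.09) and *NFKB2* (1.02) were near the Poisson value, as *SOD2* itself was in Ctrl (1.04). *NFKBIA* (2.82), *ICAM1* (2.02) and *TNFAIP2* (1.69) were above it in Ctrl already. *ICAM1* was at 3.84 at 1 day and 3.33 at 3 days, so its value was not highest at 7 days. At 7 days the 55 cells with the most *NFKB2* still held 46.2% of its UMIs, and those with the most *SOD2* held 46.5%. A share of UMIs in the top cells is thus no measure of uneven spread by itself.

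Levels of *ICAM1* and *SOD2* also differed by cell cycle call. At 7 days *ICAM1* was at 51.9 CPM (47.3 to 56.7) in the 209 G1 cells and at 14.1 CPM (12.4 to 16.1) in the 360 cells called S or G2M, and *SOD2* was at 147 CPM (139 to 155) and 56.5 CPM (52.9 to 60.3). *ICAM1* showed the same order in the other libraries, with 2.91 against 0.767 CPM in Ctrl, 3.59 against 0.762 CPM at 1 day and 17.8 against 3.42 CPM at 3 days. In S or G2M cells its Ctrl and 1-day levels thus overlapped, and in G1 cells they did too. *TNFAIP3* at 3 days was at 20.5 CPM in G1 and 8.99 CPM in S or G2M. *BIRC3* did not differ by call at 7 days beyond counting error, at 39.4 and 39.2 CPM. *NFKBIA* was higher in S or G2M at 7 days (90.9 against 77.0 CPM) but lower there at 3 days (65.3 against 77.9 CPM).

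The 1-day and Ctrl levels of *BIRC3*, *SOD2* and *NFKBIA* were also taken within each call. *BIRC3* went from 16.5 CPM in G1 cells of Ctrl to 2.43 CPM at 1 day, and from 11.2 to 1.27 CPM in S or G2M cells. *SOD2* was at 35.4 and 20.4 CPM in G1 cells and at 31.8 and 23.2 CPM in the others. *NFKBIA* was at 44.9 and 30.6 CPM in G1 cells and at 41.8 and 27.1 CPM in the others. The intervals of the 2 libraries did not overlap in either call for these 3 genes. Restricted to G1 cells, the 1-day log2 ratio of *ICAM1* was 0.30 in place of 1.24, and the 7-day log2 ratio of *SOD2* was 2.06 in place of 1.46.

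**Figure D4:**
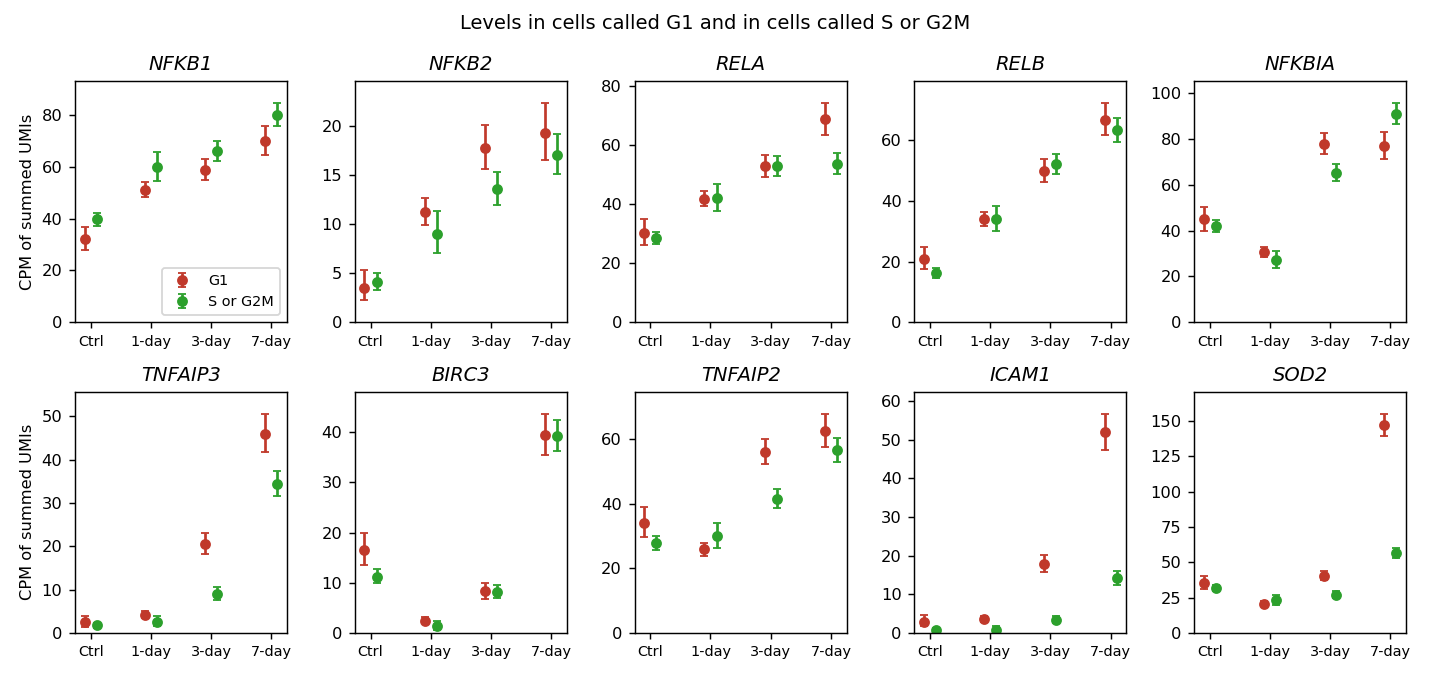
Level of each gene (y axis, CPM of summed UMIs) in cells called G1 (red) and in cells called S or G2M (green) of each library (x axis), with exact Poisson 95% intervals. At 7 days ICAM1 is at 51.9 CPM in G1 against 14.1 CPM in the other cells, and SOD2 at 147 against 56.5 CPM, while BIRC3 is level.

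Across cells of a library, which share depth after thinning and are not replicates, the 10 genes were weakly related. The median Pearson r of log-normalized counts over the 45 pairs of genes was 0.03 in Ctrl, 0.08 at 1 day, 0.10 at 3 days and 0.06 at 7 days. In counts this sparse such values are no finding. The highest pair at 7 days was *ICAM1* and *SOD2*, with an r of 0.39 over 549 cells, against 0.04 in Ctrl, 0.30 at 1 day and 0.25 at 3 days. Within G1 cells of the 7-day library it was 0.40 over 199 cells. *TNFAIP3* and *ICAM1* had an r of 0.33 at 1 day, and *TNFAIP2* and *ICAM1* an r of 0.33 at 3 days. *ICAM1* had a UMI in 15 of 844 thinned cells in Ctrl and 21 of 900 at 1 day. At 3 days it had one in 53 of 677 and at 7 days in 137 of 549. Its r values before 7 days thus rest on few cells, and no change between libraries is read from them.

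Of 7170 genes with a UMI in at least 20% of thinned 7-day cells, those of highest r with *ICAM1* were *SOD2*, *G0S2* (0.39), *PLAU* (0.35), *SLC2A6* (0.34) and *SLC7A2* (0.33), where 1% of all genes were above 0.20. *PLAU*, which encodes urokinase, was also first for *BIRC3* (0.26), followed by the chemokine gene *CXCL3* (0.25). *SOD2* had *ICAM1*, *FTH1* (0.30), *PNRC1* (0.30), *CXCL8* (0.29) and *TPT1* (0.29). Among the genes of highest r with *NFKB1* were *LIMA1* (0.24) and *TRAF1* (0.23), and for *RELA*, *RELB*, *NFKB2*, *NFKBIA*, *TNFAIP2* and *TNFAIP3* the highest r lay between 0.17 and 0.21. These are descriptions of 1 library. They were taken over cells of every phase call, and the part of the cell cycle in them was not tested.

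Courses over the libraries were compared by the Euclidean distance between log2 ratios to Ctrl at 1, 3 and 7 days. The 10416 genes used reached 5 CPM in any library, had a UMI in every library and had a symbol that occurs once. *TNFAIP3* and *ICAM1* were each other's nearest gene (0.25). The distances carry the counting error of the ratios, whose 7-day intervals were 3.98 to 4.79 for *TNFAIP3* and 4.02 to 5.02 for *ICAM1*. The order of genes at such distances is therefore not settled. The next nearest to *ICAM1* was *LGALS1* (0.36), and to *TNFAIP3* it was *CYGB* (0.43). *RELB* lay nearest to *EHD1* and *LIMD2* (0.08 for both), and *NFKB2* to *HIVEP1* (0.14), which encodes a zinc finger protein that binds kB-like enhancer motifs. The nearest to *BIRC3* were *TNFSF15* (0.48) and *CXCL3* (0.52), which had log2 ratios of -2.52 and -2.75 at 1 day and of 2.13 and 1.99 at 7 days. *NFKBIA* lay nearest to *ADGRE5* (0.19) and *FOXA1* (0.20), *SOD2* to *ENTPD3* (0.29) and *AREG* (0.30), *NFKB1* to *TBC1D16*, *RELA* to *CLASP1* and *TNFAIP2* to *SNAPC2*.

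The remaining genes of the pathway were described from lists that hold none of the 10 genes. These lists too were chosen with earlier results of these data known. Their counts beside the shares of all genes are therefore descriptions and no test of the pathway. Of 7 other subunit and IκB genes, 6 had at least 5 CPM and 1 was higher at 7 days, *NFKBIE*, which encodes IκBε, with 6.50 CPM in Ctrl and 23.8 CPM at 7 days (log2 ratio 1.87). The median log2 ratio of the 6 genes was 0.54. Of 9 other negative regulators, 8 had at least 5 CPM and 5 were higher: *TNIP1* (1.61), which encodes a partner of A20, *ZC3H12A* (1.42), an RNase gene, *N4BP1* (1.17), *TNIP2* (1.17) and the deubiquitinase gene *CYLD* (1.01). None of the 8 was lower, and their median log2 ratio was 1.09. Of all genes 12.1% were called higher and 6.22% lower. In G1 cells or with median-of-ratios scaling 4 of these regulators were higher.

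Of 24 kinase and adaptor genes, 22 had at least 5 CPM, and 4 were higher and 1 lower at 7 days, beside 12.1% and 6.22% of all genes, with a median log2 ratio of 0.62. The 1 of 6 other subunit and IκB genes stands beside the same shares. *TRAF1*, an adaptor gene that is also known as an NF-kB target, had the highest ratio, from 1.90 CPM in Ctrl through 4.80 and 31.0 CPM to 81.5 CPM at 7 days (log2 ratio 5.42). *IKBKE* (1.63), *MYD88* (1.42) and *TRAF3* (1.27) were the others, and *SHARPIN* was higher at 3 days (1.21) but at 0.71 at 7 days. *MAP3K14*, which encodes the kinase NIK of the non-canonical branch, fell by 1.01 on the log2 scale (-1.37 to -0.65), from 7.37 to 3.66 CPM, and no gene of the list was called lower with a mitochondrial limit of 10% or with means over cells. The genes of the IκB kinase complex, *CHUK*, *IKBKB* and *IKBKG*, had log2 ratios of 0.67, -0.37 and 0.21 and did not pass 2-fold.

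Of 21 ligand and receptor genes, 10 had at least 5 CPM. At 7 days 6 were higher and 1 lower, beside 12.1% and 6.22% of all genes. *TNF*, the ligand after which several of the genes are named, had 6 UMIs in Ctrl and was at 2.61, 17.4 and 30.4 CPM at 1, 3 and 7 days, a 7-day log2 ratio of 7.25 (6.12 to 8.70). *IL1A* went from 14.8 to 84.5 CPM (2.51). *IL1B* had 42 UMIs in Ctrl and 2 at 1 day, a log2 ratio of -4.53 (-7.62 to -2.59), and was at 12.9 CPM at 7 days (3.20). It too was below Ctrl at 1 day and above it at 7 days. Its levels in Ctrl (1.40 CPM) and at 1 day (0.061 CPM) were both under 5 CPM, so no call was made at 1 day. *LTB* (3.74) and *TNFRSF12A* (1.45) were higher, and *TLR6* was lower (-1.56). The sixth higher gene was *CD40* (1.57), named after its value was seen because so few genes were called. Only 6 of the 21 genes had at least 5 CPM in Ctrl. Of these, 2 were higher and 1 lower, where 7.92% of all genes were higher. The median log2 ratio of these 6 was -0.14, against 1.51 for the 10.

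Of 34 other target genes, 25 had at least 5 CPM, and their median log2 ratio was 2.25. At 7 days 19 were higher and 1 was lower, beside 12.1% and 6.22% of all genes. The lower gene was *LCN2* (-1.11), named after its value was seen. The count lower was 0 with thinned cells and 2 without doublets. *CCL5*, a chemokine gene, went from 0.133 CPM in Ctrl (4 UMIs) to 97.7 CPM (log2 ratio 9.52), and *BCL2A1*, an anti-apoptotic gene, from 0.133 to 45.2 CPM (8.40). *CCL2* had no UMI in Ctrl and 125 CPM at 7 days, which is 1246-fold higher if a floor of 3 counts is set for Ctrl. The exact interval used for the other genes has its lower limit for *CCL2* at a log2 ratio of 9.98. *IL6* had 2 UMIs in Ctrl and 203 at 7 days (6.91, 5.03 to 9.96). *MMP9* (5.27) and *PLAU* (4.54) were at 81.2 and 149 CPM. Among the 15 genes with at least 5 CPM in Ctrl, 9 were higher and 1 lower, where 7.92% of all genes were higher. The median log2 ratio of these 15 was below the 2.25 of the 25 genes. It was still above that of all genes under the same limit. The 2.25 thus rests in part on genes that entered through their level at 7 days. At 1 day the same list had 2 genes higher and 5 lower of 16, beside 9.04% and 9.97% of all genes, with a median of -0.29.

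**Figure D5:**
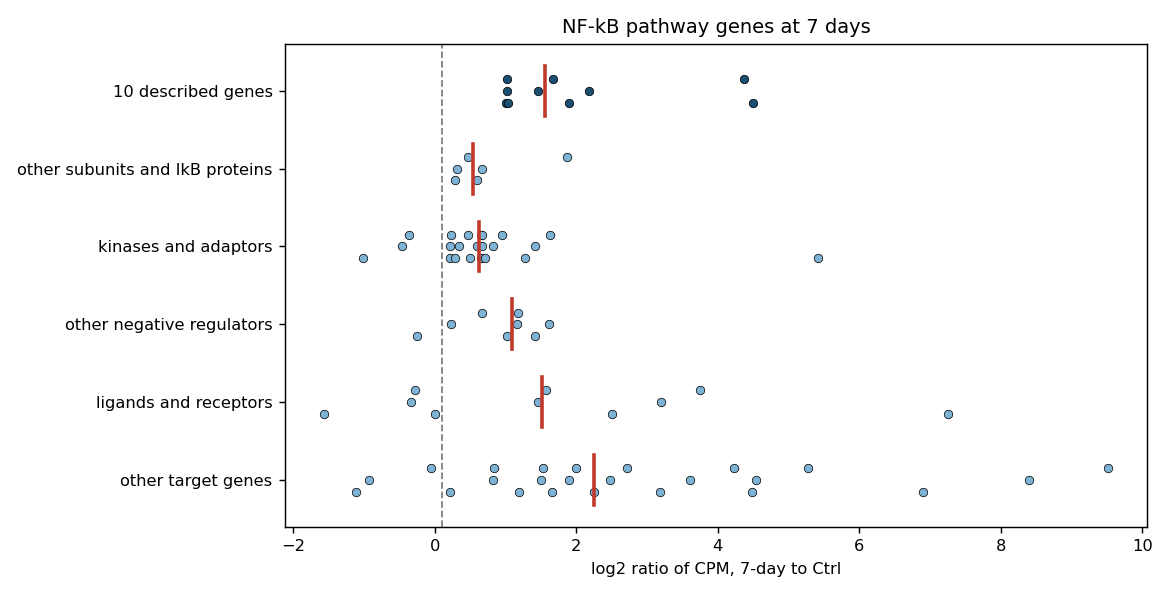
Log2 ratio of CPM at 7 days to Ctrl (x axis) for genes that reached 5 CPM in either library, by list (y axis), with red bars at each list's median and a dashed line at the median of all genes (0.10). The medians run from 0.54 for other subunits and IkB proteins to 2.25 for other target genes, and CCL2, at 0 in Ctrl, is not drawn.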

How the data were processed

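The authors made 10x Genomics 3' libraries, processed the reads with Cell Ranger 2.0.1 on GRCh38 (hg38) per the labels, and deposited raw UMI counts, not normalized, for every gene in every cell. The matrices were read in part (941 of 3372, 945 of 2601, 712 of 2253 and 572 of 2484 cells), so that sums are not full library depth. Cells with more than 200 genes and at most 20% mitochondrial UMIs were retained, 933 in Ctrl and 937, 705 and 569 at 1, 3 and 7 days. The 20% limit was set here. Scrublet in scanpy 1.11.5 marked 40 doublets, which were retained except in an alternative.

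UMIs were summed per library, scaled to CPM, and given exact Poisson, conditional or binomial 95% intervals (scipy 1.17.1). For phases and correlations, counts were scaled to 10000 per cell and log-transformed with 1 added. Cell cycle phases used the lists of Seurat 5.3.0 (46 S and 54 G2M genes) and a random draw of control genes. The 10 genes and the pathway lists were chosen with earlier results of these data known. Genes named from a list were up to 6 with the largest absolute log2 ratio among those past 2-fold. For each of the 10 genes the 2 nearest in course and the 5 of highest r were taken, and not all are printed, 1 of them because it is not reported here. Positions are from GENCODE release 44, matched by identifier for 9 genes. The code of the comparisons was tested on simulated Poisson counts. These lack the extra spread between cells seen here, so the width of the intervals was not tested for it. The alternatives were other mitochondrial limits, no doublets, thinning, G1 cells only, median-of-ratios scaling, means over cells, a 1.5-fold threshold and no filter on low levels, and all were also applied to neighbouring time points, added after seeing the data. Python 3.11.15 and R 4.3.3 were used.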

Additional observations from a re-analysis of the deposited data

Results flagged for a closer look

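In 3 genes the ratio to Ctrl had opposite directions at different time points, each by more than the counting interval. *NFKBIA* had a log2 ratio of -0.51 at 1 day, 0.74 at 3 days and 1.02 at 7 days. *BIRC3* was at -2.52, -0.60 and 1.67, and *SOD2* at -0.63 at 1 day and 1.46 at 7 days, with an interval that held 0 at 3 days. All of these ratios use the same Ctrl library, and with 1 library per time point whether the time points differ was not tested.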

How the results depend on the processing

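No paired analysis was possible because a time point is represented by 1 library. Of the calls of the 10 genes, the count higher at 1 day was 1 and became 2 with thinned cells, with median-of-ratios scaling or with a 1.5-fold threshold, and 3 with no filter on low levels. The count lower at 1 day was 1 and became 2 at 1.5-fold. At 3 days 4 genes were higher and none lower, and at 1.5-fold 8 and 1. At 7 days 10 were higher, 6 with median-of-ratios scaling, 8 with a mitochondrial limit of 10% or in G1 cells and 9 with means over cells. From 1 to 3 days 4 were higher, and 7 at 1.5-fold. Shares of all genes were not taken under these alternatives, so the counts have no background there and are not read as results about the 10 genes. Median-of-ratios scaling shifts all log2 ratios to Ctrl by 0.08, 0.02 and -0.06 at 1, 3 and 7 days.

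Of 350 log2 ratios of the 10 genes under alternatives, 322 stayed within the counting interval and 27 moved outside it, 25 of them in G1 cells and 2 with thinning. The remaining one, *NFKBIA* at 7 days against 3 days, changed sign in G1 cells, from 0.28 to -0.018, and the cause was not tested. Of the 50 ratios taken in G1 cells, only 24 thus stayed within the counting interval. The largest shift was that of *ICAM1* at 1 day in G1 cells, from 1.24 to 0.30. Of 90 counts over the pathway lists at 7 days, 80 stayed within 1.5 times the main count. The exceptions include the 1 lower kinase or adaptor gene, which became 0 with a mitochondrial limit of 10% or means over cells, and the 1 lower target gene, which became 0 with thinning and 2 without doublets.

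Only part of each library was read, and each time point is 1 library from a number of cultures that is not given. The Ctrl levels of *ICAM1* (37 UMIs) and *TNFAIP3* (56 UMIs) limit how closely their ratios are known.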
